A study of Mus musculus with 32 samples.

Results

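This report describes HNF4A occupancy at the genes of 9 nuclear receptors that sense sterols, bile acids, vitamin D and foreign compounds, or that act with those receptors in mouse jejunal intestinal epithelial cells (IECs). The genes were Nr1h4 (FXR), Nr0b2 (SHP), Nr1h3 (LXRα), Nr1h2 (LXRβ), Nr1i2 (PXR), Nr1i3 (CAR), Vdr, Nr5a2 (LRH-1) and Esrra. Peaks of 8 HNF4A ChIP-seq lists were merged at any overlap of 1 bp or more, and the resulting sites within a gene body or 20 kb on either side were kept, in mm9 with GENCODE M1 genes. This gave 88 of 45552 merged sites, in the windows of 9 of 22380 protein-coding genes.

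The ChIP-seq compared 4 germ-free mice after a high-fat meal (GF+HFM) with 4 formerly germ-free mice that were colonized with a conventional microbiota for 14 days and then given the same meal (CV+HFM). Every animal was a male C57BL/6J mouse of 10 to 12 weeks, and jejunal IECs were scraped from the tissue 2 hours after an egg yolk meal. The scraped preparations were mostly epithelial. According to the paper, they took in most of the villus epithelium, part of the crypts and some mesenchymal cells of the villus. The antibody and the strain were the same in both groups, and the labels name 1 input library for each group. Whether the 4 libraries of a group came from separate litters or cages is not given in the sources used here, so p-values measure the spread between these libraries only.

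Each deposited list holds the chromosome, start, end and name of its peaks and no height, fold, score or read count. The depth of each library is therefore unknown, and its part in the length of a list was not tested. The lists held 31061 to 36846 peaks in GF+HFM. In CV+HFM replicates 1 to 4 they held 29345, 9206, 21033 and 4533 peaks, so replicates 2 and 4 stood apart from the rest. Peak width was the only graded measure, and a width percentile below is the rank of a peak among all peaks of its own library. Because the lists differ in length, percentiles of 2 libraries are ranks among different sets of peaks and are not on one scale. The lists also differ in width as a whole. The median peak width was 313, 298, 407 and 464 bp in GF+HFM replicates 1 to 4. In CV+HFM replicates 1 to 4 it was 318, 186, 274 and 103 bp. As a description of the tissue, all 6 enterocyte loci examined (Vil1, Fabp2, Lct, Sis, Apoa4 and Cdx1) had HNF4A sites, as did 65.5% of all protein-coding genes. Of their 60 sites, 12 (20.0%) were called in all 8 libraries, beside 7.76% of the sites in all gene windows. Apoa4 held 5 of these 12, Fabp2 3, Vil1 2, Cdx1 and Lct 1 each and Sis 0. Of 8 loci of other cell types, Ptprc and Pdgfra had 0 sites, the other 6 had 2 to 5 sites each, and 0 of these 19 sites were called in all 8 libraries. Having a site thus did not mark a cell type.

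HNF4A is a nuclear receptor of the enterocyte and the hepatocyte that binds DNA as a pair of like molecules, at 2 half-sites in tandem. The receptors described here use related half-sites, most of them paired with RXR, and several are switched by small ligands: bile acids for FXR, oxidized cholesterol for the LXRs, drugs and other foreign compounds for PXR and CAR, and vitamin D hormone or lithocholic acid for VDR. SHP lacks a DNA-binding domain and represses other receptors, LRH-1 binds as a single molecule and is needed for crypt renewal, and ERRα, the product of Esrra, drives mitochondrial genes together with PGC-1 coactivators.

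The sequences that follow were chosen to show the DNA under these sites. First come bases upstream of 4 gene starts that HNF4A peaks covered. They adjoin the start at Nr1i2 and Nr1i3 and lie farther from it at Nr0b2 and Nr5a2. Next is the site with the highest mean width percentile, in Vdr. The last 4 are sites whose shared interval held a close match to an HNF4A motif. Each is NCBIM37 (mm9) reference sequence of the plus strand, 5′ to 3′, from the interval covered by the peaks of the most libraries, without annotated exons and at most 300 bases long. Capitals mark an exact HNF4 core motif (CAAAGTCCA, either strand) or 2 copies of the half-site AGGTCA in tandem with 1 base between them and at most 2 mismatches. The printed intervals of the start sites and of that Vdr site held neither and stand in lower case throughout. That Vdr site and the last 4 sequences were chosen after their values were seen.
Nr1i2 start, chr16:38294911-38295041: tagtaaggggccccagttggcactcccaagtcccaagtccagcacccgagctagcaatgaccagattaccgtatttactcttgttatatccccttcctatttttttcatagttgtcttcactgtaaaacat
Nr1i3 start, chr1:173144052-173144100: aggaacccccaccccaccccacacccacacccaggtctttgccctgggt
Nr0b2 start, chr4:133108664-133108963: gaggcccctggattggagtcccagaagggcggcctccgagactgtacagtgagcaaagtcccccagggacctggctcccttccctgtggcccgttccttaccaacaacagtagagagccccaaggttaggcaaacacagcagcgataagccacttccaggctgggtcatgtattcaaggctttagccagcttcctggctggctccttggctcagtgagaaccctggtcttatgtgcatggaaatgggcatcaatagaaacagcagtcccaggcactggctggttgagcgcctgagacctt
Nr5a2 start, chr1:138857100-138857399: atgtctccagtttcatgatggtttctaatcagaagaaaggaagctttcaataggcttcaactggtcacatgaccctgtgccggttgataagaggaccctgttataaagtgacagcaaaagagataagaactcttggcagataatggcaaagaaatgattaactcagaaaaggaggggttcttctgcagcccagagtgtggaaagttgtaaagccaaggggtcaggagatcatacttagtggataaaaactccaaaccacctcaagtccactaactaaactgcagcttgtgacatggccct
Vdr intron 3, highest percentile, chr15:97711858-97712157: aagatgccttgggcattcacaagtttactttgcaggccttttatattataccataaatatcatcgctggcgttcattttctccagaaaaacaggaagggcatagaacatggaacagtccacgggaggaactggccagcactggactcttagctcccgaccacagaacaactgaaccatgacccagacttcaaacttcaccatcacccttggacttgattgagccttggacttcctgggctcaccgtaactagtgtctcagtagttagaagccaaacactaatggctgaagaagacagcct
Vdr intron 3, called in GF+HFM only, chr15:97707905-97708041: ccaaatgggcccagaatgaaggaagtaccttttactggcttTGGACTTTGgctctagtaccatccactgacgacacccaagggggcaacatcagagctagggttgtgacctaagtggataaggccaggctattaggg
Vdr upstream, chr15:97745791-97745903: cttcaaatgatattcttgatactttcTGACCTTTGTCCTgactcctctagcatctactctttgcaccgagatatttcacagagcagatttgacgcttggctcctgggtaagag
Nr5a2 intron 7, chr1:138784296-138784464: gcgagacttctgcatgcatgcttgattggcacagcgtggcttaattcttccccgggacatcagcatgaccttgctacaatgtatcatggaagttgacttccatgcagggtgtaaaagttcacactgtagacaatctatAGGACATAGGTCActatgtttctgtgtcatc
Esrra intron 2, chr19:6992984-6993035: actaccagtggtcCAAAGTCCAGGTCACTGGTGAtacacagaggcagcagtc

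The share of sites with such a match stood near that of HNF4A sites elsewhere. In windows of 200 bp at the centre of each merged site, the tandem repeat with 1 base between its half-sites occurred at 13 of 88 sites (14.8%) and at 12.9% of the 45326 merged sites with reference sequence. The exact core motif CAAAGTCCA occurred at 4 of the 88 sites (4.55%) and at 4.89% of all merged sites. The extended half-site TCAAGGTCA, which LRH-1 and ERRα can bind as single molecules, occurred at 0 of the 88 sites and at 0.827% of all. Tandem repeats with 3 bases between, the arrangement used by VDR and RXR, were found at 3 sites (3.41%, against 3.58% of all), and those with 4 bases between, used by LXR and RXR, at 2 sites (2.27%, against 3.51%). The inverted repeat with 1 base between, the arrangement used by FXR and RXR, was found at 1 site (1.14%, against 1.90%), in Nr1i2. Of the 13 sites with the 1-base tandem repeat, 4 lay at Esrra, 3 at Vdr and 2 at Nr5a2, and Nr1h3 and Nr0b2 had 0. These searches covered both strands, allowed up to 2 mismatches for the repeats only, and describe letters, not binding.

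HNF4A sites were many at most of these genes. Vdr had 23 sites, more than 99.7% of protein-coding genes, Nr1h4 had 16 (more than 98.9%), Nr1i2 13 (97.7%) and Nr5a2 11 (96%). Esrra had 8 sites, Nr0b2 6, Nr1i3 5, Nr1h3 4 and Nr1h2 2, where the median of all protein-coding genes was 2 sites and 65.5% of them had a site. Counted per length of window, which is longer for the longer genes, Vdr still had more sites than 99.5% of genes, with 23.9 sites per 100 kb, and Esrra, Nr1i2, Nr0b2 and Nr1h4 had more than 93.9% to 96.4%. Nr5a2, with the longest gene body of the set, fell to 78.8% on this scale. Inside the gene bodies, but over no start or exon, lay 51 of the 88 sites, most of them in introns. Among these, the Vdr site at chr15:97738987-97739164 lay in no intron of the transcript with the most exons. Of the rest, 19 lay upstream, 9 downstream, 8 over an annotated start and 1 over an exon of Esrra. For 66 of the sites the nearest start of a protein-coding gene was that of the receptor gene itself, and the other 22 were nearer to a neighbour such as Gas2l3, Pcp4l1, Pold1, Gpatch3 or Trmt112.

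**Figure D1:**
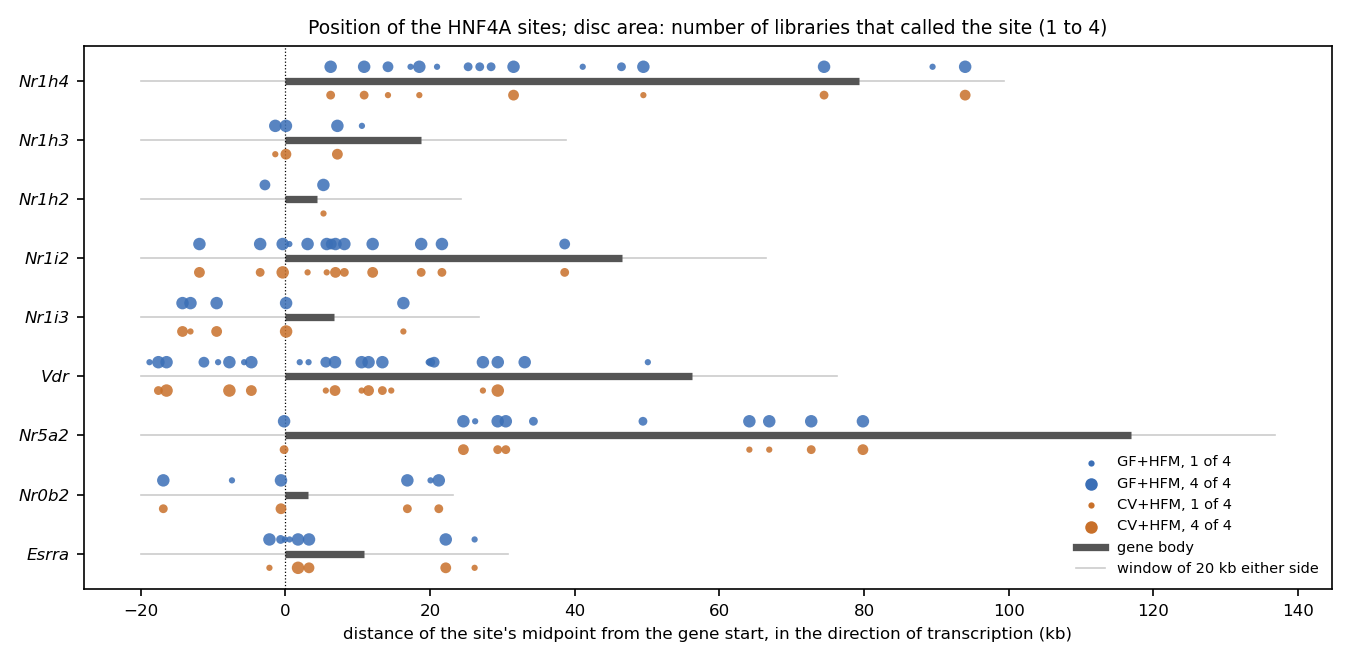
Position of each merged HNF4A site relative to the start of its gene, in kb along the direction of transcription, with GF+HFM calls above and CV+HFM calls below the gene body. Disc area gives the number of libraries, 1 to 4, that called the site. Vdr carries 8 sites upstream of its start and 15 inside the gene, and the sites of Nr1i3 and Nr0b2 lie outside the gene body except for those at the start.

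Fewer of the 88 sites were called in CV+HFM. GF+HFM replicates 1 to 4 called 75, 58, 67 and 68 of them, and CV+HFM replicates 1 to 4 called 54, 21, 43 and 8. Every GF+HFM library called more of them than any CV+HFM library, with means of 67.0 ± 6.98 and 31.5 ± 20.8 sites (SD, n = 4 each). The lists themselves were shorter in CV+HFM, and the receptor genes followed them: per 10000 peaks of the library, GF+HFM replicates 1 to 4 called 20.4, 18.7, 19.7 and 19.9 of these sites and CV+HFM replicates 1 to 4 called 18.4, 22.8, 20.4 and 17.6. On that scale the groups overlapped, with means of 19.7 ± 0.710 and 19.8 ± 2.31 (SD, n = 4 each). Without CV+HFM replicates 2 and 4, the mean of CV+HFM was 48.5 sites.

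Site by site, 80 of the 88 (90.9%) were found in a larger number of GF+HFM libraries than of CV+HFM libraries, 7 in equal numbers, and 1, in Vdr, in more CV+HFM libraries. Of all merged sites, 86.5% were called in more GF+HFM libraries and 2.86% in more CV+HFM libraries, so these shares stood near the background. Without CV+HFM replicates 2 and 4, 46 of the 88 (52.3%) were called in a larger share of GF+HFM libraries, beside 51.3% of all merged sites. A peak in every GF+HFM library was found at 53 sites (60.2%, against 50.6% of all merged sites), all 8 libraries called 6 (6.82%, against 7.56%), and 19 were called in 1 library (21.6%, the same as the 21.6% of all). Of the 53 sites called in all 4 GF+HFM libraries, CV+HFM replicates 1 to 4 called 49, 21, 42 and 8, or 92.5%, 39.6%, 79.2% and 15.1%. For the 23049 sites of the whole genome with a peak in every GF+HFM library these shares were 91.6%, 37.1%, 78.0% and 17.0%. The 53 sites had a median width percentile of 69.5 in GF+HFM, and all 23049 had 62.0.

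**Figure D2:**
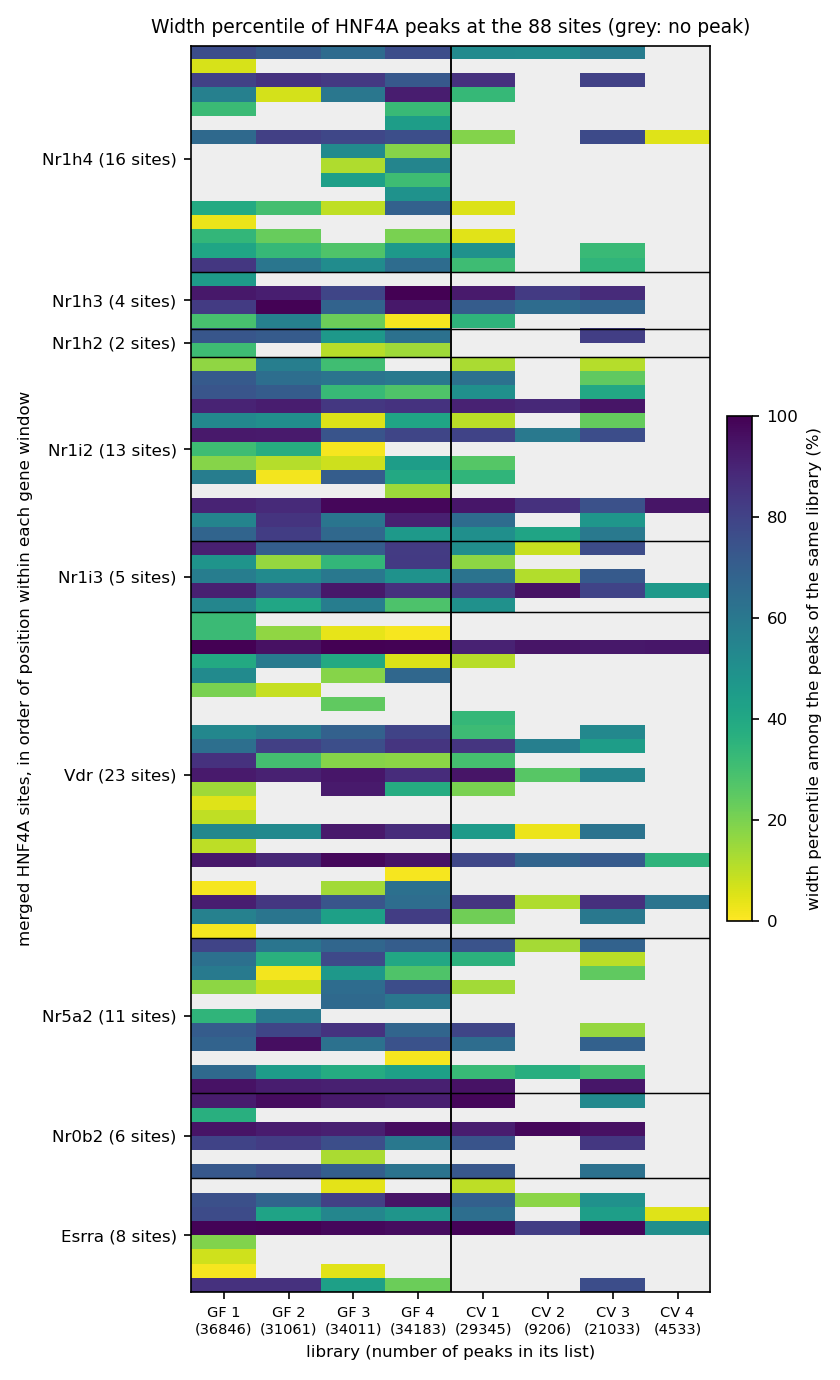
Each row is 1 of the 88 merged sites, grouped by gene and ordered by position, and each column is a library with the number of peaks in its list below. Colour gives the width percentile of the peak among all peaks of that library, and grey marks a site without a peak. The left columns hold 58 to 75 called sites and the right columns 8 to 54, and dark rows that run across both groups stand at Nr1i2, Nr1i3, Vdr and Esrra.

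No single site reached significance over all merged sites. The largest contrast the design allows, 4 GF+HFM libraries against 0 CV+HFM libraries, occurred at 1 of the 88 sites, in intron 3 of Vdr (Fisher's exact test, two-sided, p = 0.0286), and at 2.79% of all merged sites. The smallest adjusted p over all merged sites was 0.824 (Fisher's exact test with Benjamini-Hochberg adjustment). With no raw p under 0.0286 possible, an adjusted p of 0.05 would need this contrast at the majority of all sites. The adjusted test could therefore hardly single out a site. The number of sites called per gene was compared for 14653 protein-coding genes with at least 1 site by an exact permutation test (70 ways to assign the libraries, two-sided). Nr5a2 was the 1 gene of the 9 with a raw p at or under 0.05 (exact permutation test, p = 0.0286, adjusted p = 0.234 over all genes). Of all genes tested, 12.2% were that low with fewer sites in CV+HFM, a share not matched for number of sites. The smallest adjusted p over all genes was 0.234, so 0 genes passed, in a test with the same floor of 0.0286. All 9 genes had fewer sites called in the mean of CV+HFM, as did 96.2% of all genes tested. For Nr1i3 and Nr0b2 this rested on sites away from the gene: with windows of 5 kb, or with sites nearest to the gene's own start, the difference of Nr1i3 went to 0 and that of Nr0b2 from -2.25 to -0.250.

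**Figure D3:**
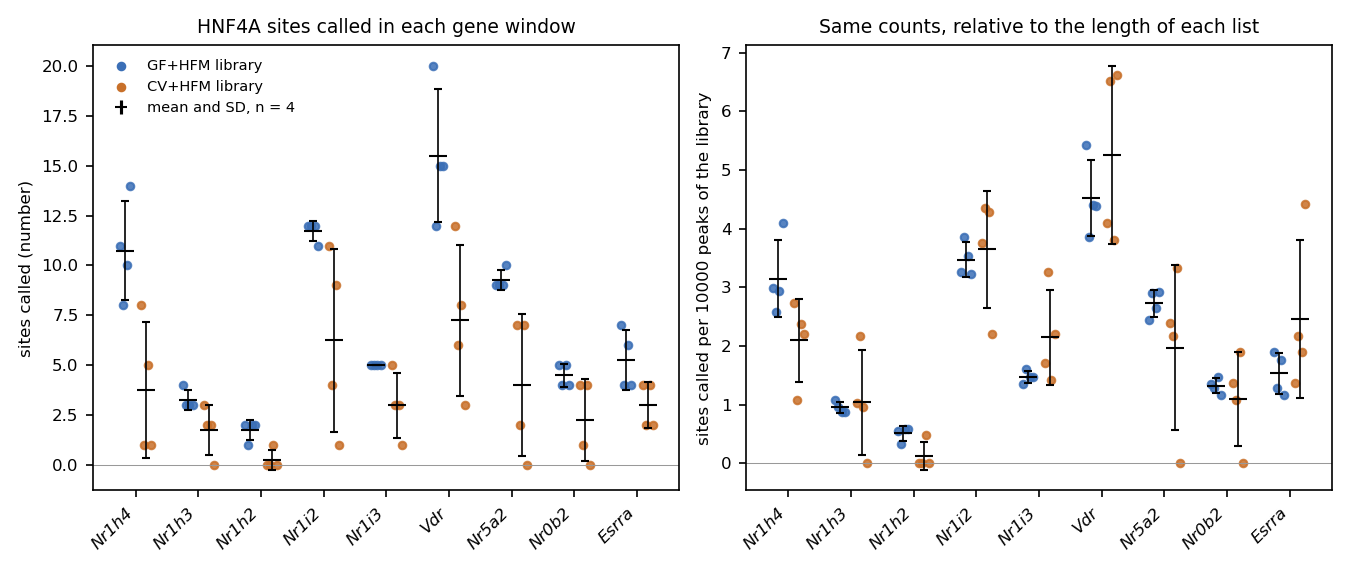
Left, number of HNF4A sites called in the window of each gene in each library, with the mean and SD of the 4 libraries of a group. Right, the same counts per 10000 peaks of the library. On the left each CV+HFM mean is lower than the GF+HFM mean, and on the right the CV+HFM mean is lower for Nr1h4, Nr1h2, Nr5a2 and Nr0b2 and higher for the other 5 genes.

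The bile acid receptor gene Nr1h4 lies on the minus strand of chr10:88916979-88996330. FXR, its product, induces Fgf15 and the bile acid exporters of the enterocyte. The 16 sites of Nr1h4 were called 11, 8, 10 and 14 times in GF+HFM replicates 1 to 4 and 8, 1, 5 and 1 times in CV+HFM replicates 1 to 4. GF+HFM replicate 2 and CV+HFM replicate 1 had the same number, and the means were 10.8 ± 2.50 and 3.75 ± 3.40 (SD, n = 4 each; exact permutation test, p = 0.0571). Scaled to 10000 peaks, the means of Nr1h4 were 3.15 ± 0.657 and 2.1 ± 0.709, with the same p (exact permutation test, p = 0.0571). None of the 16 sites was called in all 8 libraries, and 8 were called in 0 CV+HFM libraries. Each of those 8 was called in only 1 or 2 GF+HFM libraries. No site of Nr1h4 was called in all 4 GF+HFM libraries and 0 CV+HFM libraries. Among the sites of all the receptor genes, 31 (35.2%) were called in 0 CV+HFM libraries, and this share is not given here for all merged sites. No site covered the outermost start of the gene, and the nearest lay in intron 1, 5944 bp inside the gene (4 GF+HFM and 2 CV+HFM libraries). A site at chr10:88969213-88969704 covered the start of a shorter transcript in intron 2 and was called in GF+HFM replicates 3 and 4 only, with widths of 239 and 492 bp. The broadest site of Nr1h4 by percentile, chr10:88921528-88922196 in intron 8, was 505, 493, 669 and 633 bp wide in GF+HFM replicates 1 to 4 and 526 and 402 bp wide in CV+HFM replicates 1 and 3. Percentiles ranged over 72.4 to 85.5 in GF+HFM, beside 85.7 and 80.8 in the CV+HFM libraries that called it.

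Nr0b2 lies on the plus strand of chr4:133109291-133112451 and encodes SHP, the corepressor through which FXR lowers bile acid synthesis. Its 6 sites were called 5, 4, 5 and 4 times in GF+HFM and 4, 1, 4 and 0 times in CV+HFM, with means of 4.50 ± 0.577 and 2.25 ± 2.06 (SD, n = 4 each; exact permutation test, p = 0.171). The groups overlapped. Without GF+HFM replicate 4 the remaining lists were merged again, which gave a GF+HFM mean of 5.67 sites and a difference of -3.42 in place of -2.25. That change thus includes a change in the sites themselves. The site over its start, chr4:133108068-133109305, had peaks in 7 libraries, 748, 592, 818 and 1218 bp wide in GF+HFM replicates 1 to 4 and 620, 435 and 590 bp wide in CV+HFM replicates 1 to 3 (4 against 3 libraries). In GF+HFM these widths stood at percentiles of 91.3 to 96.7, those of CV+HFM stood at 91.8 to 98.1, and CV+HFM replicate 4 had no peak there. Of the other sites, 3 lay downstream, nearer to the start of Gpatch3 than to that of Nr0b2, and 1 of the 2 upstream, called in 1 library, covered the start of Nudc.

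The oxysterol receptor genes held fewer sites. LXRα and LXRβ raise cholesterol efflux through Abca1 and the Abcg5 and Abcg8 pair when oxysterols accumulate. Nr1h3, on the minus strand of chr2:91024218-91042991, was called at 4, 3, 3 and 3 of its 4 sites in GF+HFM and at 3, 2, 2 and 0 in CV+HFM (means of 3.25 ± 0.50 and 1.75 ± 1.26, SD, n = 4 each; exact permutation test, p = 0.114). Without CV+HFM replicate 4 the Nr1h3 difference went from -1.50 to -0.917 sites. Of its sites, 2 covered annotated starts, and CV+HFM replicate 4 was the only library without a peak at either. At chr2:91034815-91036784, which holds exon 1 of the transcript with the most exons, widths were 708, 575, 619 and 1950 bp in GF+HFM replicates 1 to 4 and 644, 271 and 461 bp in CV+HFM replicates 1 to 3. At chr2:91042396-91043430, which covers the outermost start and part of Acp2, they were 525, 975, 519 and 1035 bp and 409, 214 and 335 bp. The percentiles overlapped at both, 79.2 to 99.7 against 83.0 to 92.9 at the first and 68.0 to 99.3 against 64.6 to 70.8 at the second.

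Nr1h2, on the minus strand of chr7:51804986-51809321, had 2 sites, called 2, 1, 2 and 2 times in GF+HFM and 0, 0, 1 and 0 times in CV+HFM (means of 1.75 ± 0.50 and 0.250 ± 0.50, SD, n = 4 each; exact permutation test, p = 0.0571). GF+HFM replicate 2 and CV+HFM replicate 3 overlapped at 1 site. Neither site covered a start of Nr1h2. The broader, chr7:51803718-51804407, lay 2586 bp from its nearest annotated start and over the start of Pold1, the neighbouring gene for a DNA polymerase subunit, and was called in 4 GF+HFM libraries (440, 383, 388 and 550 bp) and in CV+HFM replicate 3 (407 bp).

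Among the xenobiotic receptor genes, Nr1i2 had the most sites and was covered at its only annotated start in every library. PXR, its product, induces genes of drug oxidation, conjugation and export. Nr1i2 lies on the minus strand of chr16:38248409-38294910, and its 13 sites were called 12, 12, 12 and 11 times in GF+HFM and 11, 4, 9 and 1 times in CV+HFM. Only GF+HFM replicate 4 and CV+HFM replicate 1 met, and the means were 11.8 ± 0.50 and 6.25 ± 4.57 (SD, n = 4 each; exact permutation test, p = 0.0571). Per 10000 peaks the order of the means turned, to 3.47 ± 0.298 and 3.64 ± 0.996 (exact permutation test, p = 0.80). The site over the start, chr16:38294566-38295994, was 633, 525, 1219 and 1428 bp wide in GF+HFM replicates 1 to 4 and 669, 284, 370 and 327 bp wide in CV+HFM replicates 1 to 4. In percentiles this was 88.1 to 98.4 against 75.2 to 94.2, so the peak stood among the broad ones even in the CV+HFM library with 4533 peaks, at 94.2. Of the other 12 sites of Nr1i2, 10 lay inside the gene and 2 upstream.

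Nr1i3, on the plus strand of chr1:173144101-173150832, encodes CAR, which shares targets with PXR. All 5 of its sites were called in each GF+HFM library, and CV+HFM replicates 1 to 4 called 5, 3, 3 and 1 (means of 5.00 and 3.00 ± 1.63, SD, n = 4; exact permutation test, p = 0.143). Scaled to 10000 peaks they were 1.47 ± 0.104 and 2.15 ± 0.807 (exact permutation test, p = 0.114). The site over the start, chr1:173143760-173144646, was called in all 8 libraries, with widths of 657, 422, 887 and 810 bp in GF+HFM and 496, 365, 398 and 96 bp in CV+HFM. Percentiles ran from 77.5 to 93.5 in GF+HFM and stood at 82.9, 95.3, 80.0 and 46.0 in CV+HFM replicates 1 to 4. The other 4 sites were nearer to the starts of Pcp4l1 and Fcer1g than to that of Nr1i3.

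Sites over a start were called in 8 libraries at Nr1i2 and Nr1i3, in 7 at Nr0b2 and both Nr1h3 starts and in 6 at Nr5a2. Those of Nr1h4 and Esrra were called in 2 and 1. Of these 8 sites, 2 were called in all 8 libraries and 6 in all 4 GF+HFM libraries. Across the genome, 10.7% of the 3047 sites over a protein-coding start were called in all 8 libraries and 56.3% in all 4 GF+HFM libraries. For all merged sites these shares were 7.56% and 50.6%.

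Vdr had the most sites of the 9 genes and held 3 of the 6 called in all 8 libraries. VDR induces Cyp24a1 and the calcium uptake genes of the duodenal and jejunal enterocyte. Vdr lies on the minus strand of chr15:97684856-97741061, and its 23 sites were called 20, 12, 15 and 15 times in GF+HFM and 12, 6, 8 and 3 times in CV+HFM. GF+HFM replicate 2 and CV+HFM replicate 1 met at 12, and the means were 15.5 ± 3.32 and 7.25 ± 3.77 (SD, n = 4 each; exact permutation test, p = 0.0571). Per 10000 peaks the means were 4.52 ± 0.654 and 5.26 ± 1.52 (exact permutation test, p = 0.40), with the order turned. Of the 23 sites, 8 were called in 1 library and 11 in all 4 GF+HFM libraries. Over all merged sites, these shares were 21.6% and 50.6%.

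The site of Vdr in intron 3, chr15:97710817-97712580, had the highest mean width percentile of all 88. It was 1681, 684, 1727 and 1716 bp wide in GF+HFM replicates 1 to 4 and 598, 349, 551 and 323 bp wide in CV+HFM replicates 1 to 4. Every GF+HFM peak was wider than every CV+HFM peak, in lists whose median widths also differed, as given above. The percentiles did not overlap either. They were 99.9, 95.6, 99.7 and 99.4 in GF+HFM and 90.6, 94.2, 93.7 and 93.9 in CV+HFM, whose lists were the shorter. On normal scores of width rank, taken in each library over the same 3445 sites called in all 8, the difference of CV+HFM from GF+HFM was -0.89 ± 0.43 (SE; limma, adjusted p = 0.425). The second such site, chr15:97748197-97749402, 7136 bp upstream of the start of Vdr, was 714, 541, 1163 and 1099 bp wide in GF+HFM and 461, 221, 352 and 80 bp wide in CV+HFM. Its percentiles, 93.6, 89.3, 97.8 and 94.9 against 78.7, 67.8, 71.8 and 35.0, did not overlap either, and the difference was -1.12 ± 0.37 on normal scores (SE; limma, adjusted p = 0.309). This site was named after its value was seen.

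Of the 6 sites called in all 8 libraries, these 2 in Vdr had a lower percentile in every CV+HFM than in every GF+HFM library, and 0 had a higher one. Of all 3445 sites called in all 8 libraries, 7.05% were lower and 0.639% higher in this way. In limma, 0 of the 6 sites passed an adjusted p of 0.05 (0.116% of all 3445 did), and 1, the upstream Vdr site, had an unadjusted p under 0.05 (11.6% of all did). At the other 4, unadjusted p-values were 0.197 or higher.

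**Figure D4:**
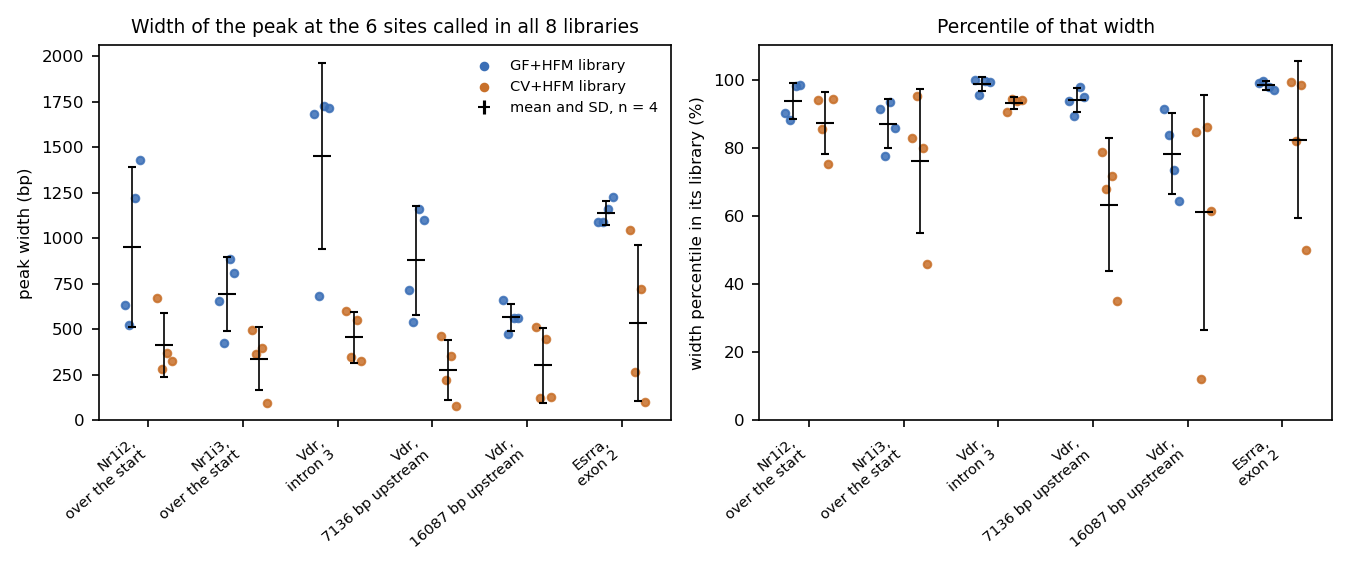
Peak width in bp (left) and its percentile among the peaks of the same library (right) at the 6 sites called in all 8 libraries, with the mean and SD of the 4 libraries of each group. The GF+HFM and CV+HFM percentiles do not overlap at the Vdr sites in intron 3 and 7136 bp upstream, and they overlap at the other 4.

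The remaining named sites of Vdr were narrower. The one nearest an annotated start, chr15:97727279-97728026, 35 bp from it and in intron 1 of the longer transcript, was 328, 329, 525 and 721 bp wide in GF+HFM and 258 and 284 bp wide in CV+HFM replicates 1 and 3. The site found in every GF+HFM library and no CV+HFM library, chr15:97707834-97708118 in intron 3, was 249, 201, 208 and 223 bp wide and stood at percentiles of 31.7, 16.5, 3.62 and 1.22, among the narrow peaks of its lists. It holds the HNF4 core motif printed above, and the start nearest to it belongs to the neighbouring gene Hdac7. The only one of the 88 sites called in more CV+HFM libraries, chr15:97726289-97726553 in intron 1, was called in CV+HFM replicate 1 alone, with a width of 265 bp.

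The 3 genes whose numbers of called sites in the 8 libraries were closest to those of Vdr were Atp8b1, Capn5 and Rab37, each with a summed absolute difference of 9 sites over the 8 libraries. Atp8b1 was called at 17, 12, 17 and 16 sites in GF+HFM and at 13, 7, 8 and 4 in CV+HFM, out of 22.

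Nr5a2 was the gene of the set whose groups did not overlap in number of sites called, as held for 12.2% of all genes tested. It lies on the minus strand of chr1:138740161-138857004, and LRH-1, its product, supports crypt cell renewal and steroid synthesis in the intestine. Its 11 sites were called 9, 9, 9 and 10 times in GF+HFM and 7, 2, 7 and 0 times in CV+HFM (means of 9.25 ± 0.50 and 4.00 ± 3.56, SD, n = 4 each; exact permutation test, p = 0.0286, adjusted p = 0.234 over all genes). Without CV+HFM replicates 2 and 4, the difference was -2.25 sites, in a design whose p cannot reach 0.05 (exact permutation test, p = 0.133). On the scale per 10000 peaks the Nr5a2 means were 2.73 ± 0.228 and 1.97 ± 1.41 (exact permutation test, p = 0.371), and the groups overlapped. The site over the start, chr1:138856711-138857649, was 763, 581, 820 and 939 bp wide in GF+HFM and 700 and 557 bp wide in CV+HFM replicates 1 and 3. Its percentiles, 91.2 to 95.1 in GF+HFM and 95 and 94.1 in the CV+HFM libraries, overlapped, and it was the only site of Nr5a2 outside the introns.

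Esrra lies on the minus strand of chr19:6985467-6996303. Its 8 sites were called 7, 4, 6 and 4 times in GF+HFM and 4, 2, 4 and 2 times in CV+HFM (means of 5.25 ± 1.5 and 3.00 ± 1.15, SD, n = 4 each; exact permutation test, p = 0.171), and the groups overlapped at 4. Per 10000 peaks the order turned, with means of 1.53 ± 0.356 and 2.46 ± 1.34 (exact permutation test, p = 0.143). The outermost start was covered by chr19:6996282-6996452, called in GF+HFM replicate 1 alone with a width of 171 bp. The broad peak of the gene lay inside it, over exon 2, at chr19:6993937-6995163. This site was called in all 8 libraries, with widths of 1087, 1091, 1159 and 1227 bp in GF+HFM and 1046, 266, 723 and 103 bp in CV+HFM. Its percentiles were 98.9, 99.6, 97.8 and 96.8 in GF+HFM and 99.2, 81.9, 98.3 and 50.0 in CV+HFM, where the low values belong to the 2 short lists. The site in intron 2 whose sequence is printed above, with a core motif that overlaps a tandem repeat, had peaks in 7 libraries, CV+HFM replicate 4 among them.

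The partners and targets of these receptors also had fewer sites called in the CV+HFM mean. List medians were -1.25 to -3.12 sites, beside -1.25 for all genes with a site. The median number of sites per gene was higher in each list than over all protein-coding genes, and a gene with more sites can lose more. Neither that -1.25 nor the 12.2% below was matched for number of sites. Whether these lists lost more than genes with as many sites was not tested. The lists were made from general knowledge, and per gene the exact permutation test was read at a raw p of 0.05, where 12.2% of all genes with a site are lower in CV+HFM and 0 are higher. Of 39 other nuclear receptor genes, 30 had a site, 8 of them were lower in CV+HFM (Thrb, Hnf4a, Ppara and Hnf4g among them) and 0 higher. Those with the most sites were Thrb with 23, Hnf4a with 20, Ppara with 18 and Nr3c2 with 17. Hnf4a itself had means of 13.8 ± 0.957 sites in GF+HFM libraries and 4.25 ± 4.03 in the CV+HFM ones (SD, n = 4 each; exact permutation test, p = 0.0286). The counts of these lists are raw and not per 10000 peaks, and the peak lists averaged 34025 peaks in GF+HFM and 16029 in CV+HFM. A lower count was thus not separated from the length of the peak lists. Of 12 coregulator genes, all had a site and 4 were lower (Ncoa2, Ncor1, Med1 and Ep300). Ppargc1b, a PGC-1 coactivator of ERRα, had 17 sites, Nrip1 14, Ppargc1a 12 and Ncoa2 11.

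Among genes known to be regulated by the receptors, 6 of 8 FXR targets had a site and 1, Slc27a5, was lower in CV+HFM. The organic solute transporter genes Slc51a and Slc51b, which export bile acids from the enterocyte, had 10 and 5 sites, whereas Fabp6 and Abcb11 had 0 and Fgf15 had 2. Of 11 LXR targets, 10 had a site and 2, Abcg5 and Abcg1, were lower, with 18 sites at Lpcat3, 11 at Srebf1, 9 at Abcg5 and 7 at Abcg8. All 15 PXR and CAR targets had a site and 3, Por, Cyp3a25 and Cyp3a11, were lower, with 16 sites at Por, 11 at Abcc2, 9 at Abcc3 and 9 at Aldh1a1. Of 7 VDR targets, 5 had a site and 1, Atp2b1, was lower, with 12 sites at Slc34a2, 8 at Slc30a10, 6 at Atp2b1 and 3 at Cyp24a1, and S100g and Trpv6 had 0. All 10 ERRα targets had a site and 2 were lower, Idh3a among them, with 8 sites at Cs, 7 at Atp5b and 5 at Idh3a. Of the 6 enterocyte loci, 3 were lower (Cdx1, Lct and Sis), and of the 6 loci of other cell types with a site, 0 were. The genes named as lower were named after their values were seen. After adjustment over all genes tested, 0 genes of any list passed. The target counts are also raw and not matched for number of sites. Lower calls among them were thus not separated from the shorter CV+HFM peak lists or from the number of sites per gene.

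The window was set by distance. The outermost of the 88 sites lay 18705 bp from the body of Vdr, and the first site outside the windows lay 20115 bp from Esrra. Both were called in 1 GF+HFM library.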

How the data were processed

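HNF4A ChIP-seq lists of 4 GF+HFM and 4 CV+HFM mice were used, and the RNA-seq and H3K27ac libraries were not analysed here. Reads were aligned by the authors to mm9 with Bowtie2, and MACS2 2.1.1.20160309 called peaks for each mouse against input DNA, with a false discovery rate limit and a 300 bp bandwidth. The deposited values are positions in bp, with no count, fold, score or p-value, so peak width replaced the planned rank by fold enrichment. Depth is unknown, and no counting error can be given.

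Lists were converted to positions counted from 1 and merged where peaks shared 1 bp, and a site counted as called in a library with at least 1 peak there. Where a library had several peaks in a site, the widest was used. Gene windows were the GENCODE M1 body with 20 kb on either side. Introns and exons follow the transcript with the most exons, and sequence was read from NCBIM37, in which no site ended beyond a chromosome. For 9 unplaced sequence names no reference was used here.

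Calls per site were compared by Fisher's exact test with scipy 1.17.1, sites per protein-coding gene by exact permutation over 70 relabellings, two-sided, and normal scores of width rank by limma 3.58.1 (R 4.3.3) over the 3445 sites called in all 8 libraries. Each was adjusted by the Benjamini-Hochberg method over all sites or genes, at a threshold of 0.05. The merging, permutation and limma steps were tested on simulated data. Groups follow the labels. The receptor genes, gene lists and tests were chosen with earlier results of these data known. Sites were named by rule: those over or nearest to a start, the one with the highest mean percentile, those called 4 against 0, those called in more CV+HFM libraries. For other lists, the genes with the most sites were named, and some genes of these lists are not reported here.

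Alternatives were each library left out in turn, sites covered to 50% by a library's peaks, windows of 5 and 50 kb, the nearest gene start, a least peak width of 300 bp, the 4533 widest peaks of each list, the replicate number as a block, counts per 10000 peaks, log2 widths after quantile normalization, and chromosomes 1 to 19, X and Y. After the lists were seen, 2 were added: leaving out CV+HFM replicates 2 and 4, and keeping only libraries whose identifier in the peak names ends in the letter A, whose meaning is not given in the sources used here. Whenever libraries or peaks were left out, the remaining peaks were merged again, so a site could split and a gene could gain sites. Work was done in Python 3.11.15 with numpy 2.4.6, pandas 2.3.3 and matplotlib 3.10.9.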

Additional observations from a re-analysis of the deposited data

Results flagged for a closer look

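Of 36 sets of 4 libraries examined, 7 held a library that stood apart by Dixon's 95% criterion for 4 values, and chance gives about 1 in 20. In 5 of them the other 3 libraries were equal, so a difference of 1 site was enough. These were GF+HFM replicate 1 at Nr1h3 (4 sites, others 3), GF+HFM replicate 2 at Nr1h2 (1, others 2), CV+HFM replicate 3 at Nr1h2 (1, others 0), GF+HFM replicate 4 at Nr1i2 (11, others 12) and GF+HFM replicate 4 at Nr5a2 (10, others 9).

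The other 2 concern the broad Vdr site in intron 3. GF+HFM replicate 2 stood at a width percentile of 95.6 there, where the other GF+HFM libraries were at 99.4 to 99.9, and CV+HFM replicate 1 stood at 90.6, where the other CV+HFM libraries were at 93.7 to 94.2. With either library in place, every CV+HFM value was lower than every GF+HFM value.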

How the results depend on the processing

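The difference in sites called per library, -35.5 (CV+HFM minus GF+HFM), ran from -43.0 to -27.7 as libraries were left out, and became -18.5 without CV+HFM replicates 2 and 4, -3.00 with the 4533 widest peaks of each list, and 0.171 per 10000 peaks, where its sign turned. Per 10000 peaks the differences of Nr1h3 (0.0836), Nr1i2 (0.178), Nr1i3 (0.674), Vdr (0.735) and Esrra (0.932) also turned, and with the widest peaks those of Nr1h4 (0.50) and Nr1h2 (0.250) did. The 80 sites called in more GF+HFM libraries became 46 without CV+HFM replicates 2 and 4 and 16 of 29 with the widest peaks.

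The number of sites at a raw p of 0.05 by Fisher's exact test, 1, ran from 1 to 11 as libraries were left out, with 11 without CV+HFM replicate 1 and 4 without GF+HFM replicate 2, GF+HFM replicate 4 or CV+HFM replicate 3. It was 7 with 50% of a site covered, 2 with peaks at least 300 bp wide, and 0 with the nearest gene start, the widest peaks, without CV+HFM replicates 2 and 4, or with identifiers ending in A. With the nearest start the Vdr site falls to Hdac7. The share of all merged sites at this p is not given here for these settings, so the counts are not read as a result about these genes. The number of genes at a raw p of 0.05, 1, was 4 with 50% covered or with peaks at least 300 bp wide (Nr1h4, Nr1i2 and Vdr joined Nr5a2), and 0 with the widest peaks and per 10000 peaks. Of all genes tested, 17.8% were at or under 0.05 with 50% covered and 11.5% with peaks at least 300 bp wide, beside 12.2% in the main setting. It was 0 with any library left out, without CV+HFM replicates 2 and 4, or with identifiers ending in A, where too few relabellings remain to reach 0.05. In limma, 0 sites passed under all 17 alternatives run. The rank difference of the upstream Vdr site, -1.12, became -0.55 with identifiers ending in A and lost its unadjusted call (limma, adjusted p = 0.953). That of the Vdr site in intron 3, -0.89, became -1.77 with peaks at least 300 bp wide, where 1 site could be ranked.

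Replicate numbers did not pair the libraries: same-numbered libraries correlated at 0.05, 0.07, -0.08 and 0.14 in their deviations from the group means. With the replicate number as a block, 0 genes reached a raw p of 0.05, since 16 relabellings allow no p under 0.125, and the smallest adjusted p in limma was 0.264. Causes other than those named were not tested. Depth is unknown, so a site without a peak is not shown to be unoccupied.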
